A study of Rattus norvegicus with 18 samples.

Results

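Kidney transcripts of diabetic and healthy rats were compared when both had been fed a high dose of plantain flour. The diabetic rats (HP) received the high dose, for which the design of the series gives 4 g per kg body weight, and the healthy rats (NH) are labelled as given a high dose with no amount stated for them. The 6 libraries of this comparison, 3 of HP and 3 of NH, were chosen by their labels from the 18 libraries of the series, and all 29 listed features were compared. All rats were males aged 23 weeks, and the tissue was frozen kidney. Diabetic rats (DM) and healthy rats (NC) given water, with 3 libraries each, served to set the same diabetic difference without flour beside it. The remaining libraries of the series, LP and MP, came from diabetic rats given lower doses of flour than HP. LP and MP were not compared here. Of the rats' strain, the way diabetes was brought about and the length of feeding, the sources used here say nothing. The comparison asks which diabetic differences are present when both sides receive flour.

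The kidney is rich in mitochondria because the proximal tubule reabsorbs most of the filtered salt, glucose and amino acids, work that is driven by the sodium pump and paid for with ATP. Mitochondrial DNA encodes subunits of respiratory complexes I, III and IV and of ATP synthase, and nuclear DNA encodes the other subunits. The same tubule cells make glucose through gluconeogenesis, hold glutathione enzymes and metabolise arachidonic acid. In diabetes the tubule takes up a larger load of filtered glucose together with sodium, and renal gluconeogenesis is known to be raised.

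The 29 features were 12 mitochondrial genes, 16 nuclear genes and 1 unnamed feature, in descending order of their totals over the 18 libraries, 12 of which came from diabetic rats. If the list ends at a cut on these totals, genes high in diabetic kidney were favoured onto it. Nuclear genes high only in healthy kidney could then be missing. The nuclear sum, the mitochondrial to nuclear ratio and the number of nuclear genes higher in HP therefore hold for the listed genes only. Their counts summed to between 5483969 and 7552061 in the HP libraries and between 8576253 and 10306858 in the NH libraries. These sums cover the listed features and are not library depths. Of 10 markers of the proximal tubule 5 were listed (Slc34a1, Miox, Gpx3, Pck1 and Hao2), and of 13 markers of other kidney cells, blood and injury none was among the features analysed here. The part that other cell types have in any difference was therefore not tested.

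Mitochondrial transcripts took up less of the counts in HP than in NH. Out of all counts of the 28 named genes, the 12 mitochondrial ones held 88.7, 85.8 and 84.8% in HP replicates 1 to 3, against 95.5, 94.4 and 94.98% in NH replicates 1 to 3. The groups did not overlap, and HP replicate 1 stood nearest to NH. The 95% Wilson interval of the share was 88.638 to 88.683% in HP replicate 1, so counting error, which is all that such an interval covers, was small beside the spread between libraries. Summed mitochondrial over summed nuclear counts gave a ratio of 7.82, 6.05 and 5.58 in HP, against 21.3, 16.8 and 18.9 in NH. The ratio was 2.95 times lower in HP (log2 difference -1.56, SE 0.177, two-sided exact permutation p = 0.1, which is the lowest value possible here; adjusted p = 0.1 over the 2 ratio tests). In kidney tissue, fewer cells of a type and less RNA per cell cannot be told apart.

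Both sums stood apart between the groups. The mitochondrial sum was 5379786 ± 1067789 counts in HP and 8854662 ± 819377 in NH (SD, n = 3 each), and the nuclear sum was 828579 ± 13845 counts in HP and 468855 ± 48043 in NH. With water on both sides the ratio was 4.81 ± 0.236 in DM and 13.3 ± 0.645 in NC (SD, n = 3 each), a log2 difference of -1.47 (SE 0.058). The ratio was thus 2.77 times lower in DM than in NC. The log2 difference with flour minus that with water was -0.09 (SE 0.187), less than its error, and was not tested. Each HP library had a higher ratio than any DM library, and each NH library a higher one than any NC library.

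**Figure D1:**
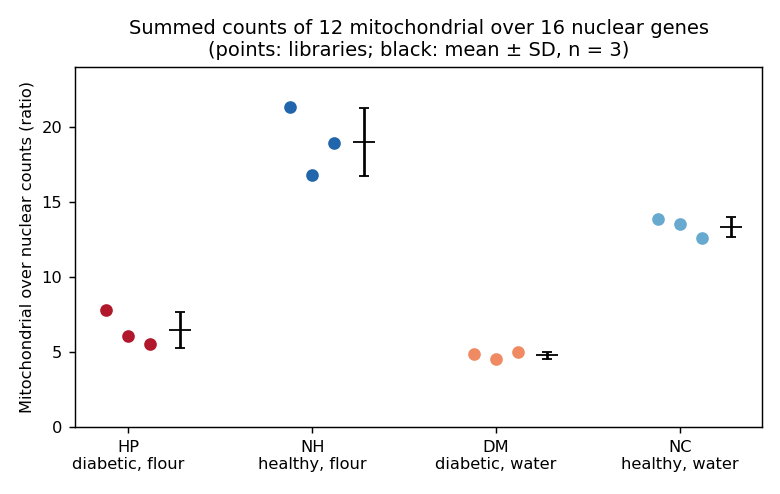
Ratio of the summed counts of 12 mitochondrial genes to those of 16 nuclear genes, on a linear axis from 0, in each library of HP, NH, DM and NC. Points are libraries and black bars are the mean ± SD (n = 3); the 3 HP libraries lie between 5.58 and 7.82 and the 3 NH libraries between 16.8 and 21.3, as DM lies below NC.

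With 2 blocks of genes so far apart, the scaling of the libraries sets where 0 lies on the axis of fold changes. Each feature was therefore tested with 4 scalings in edgeR's quasi-likelihood test, and a difference is led with only where its Benjamini-Hochberg adjusted p over the 29 features was below 0.05 in the same direction under all 4. The main scaling was TMM (trimmed mean of M-values). The others were size factors by median of ratios, library sizes from the nuclear genes' geometric mean (nuclear scaling), and counts left as deposited (unscaled). In all, 12 of 29 features (41.4%) met this, 6 nuclear genes higher in HP (20.7%), 5 of which are described here, and 6 mitochondrial genes lower (20.7%). Taken singly, TMM called 22 features (75.9%), 16 of them higher in HP (55.2%) and 6 lower (20.7%), with a median log2 fold change of 0.71 over the 29. Median-of-ratios factors called 24 (82.8%), 12 higher and 12 lower (41.4% each), at a median of 0.13. Under nuclear scaling 27 passed (93.1%), 6 higher (20.7%) and 21 lower (72.4%), at a median of -0.68. Unscaled, 23 passed (79.3%), 11 higher (37.9%) and 12 lower (41.4%), at a median of 0.20. With shares this high, a call under 1 scaling says little about a gene.

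Of the nuclear genes given here, Atp1b1 had the largest log2 fold change under each of the 4 scalings. Atp1b1, the beta subunit that carries the sodium pump to the membrane (chromosome 13, bases 82737159 to 82758004 on the minus strand in the deposited positions, whose rat build the sources used here do not state), had 55471, 49475 and 50422 counts in HP replicates 1 to 3, against 11484, 15184 and 14987 in NH replicates 1 to 3. Every HP library had more than 3 times the count of every NH library, although the NH libraries held more counts in all. Over the scalings Atp1b1 was 2.03 to 5.27 times higher in HP (edgeR, adjusted p of at most 3.16e-10). Its share of the counts of the 16 nuclear genes was 6.57, 6.06 and 6.11% in HP, against 2.76, 3.17 and 2.93% in NH, so the groups were far apart on this scale too.

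Pck1, the cytosolic phosphoenolpyruvate carboxykinase that sets the rate of gluconeogenesis (chromosome 3, bases 171213936 to 171219871 on the plus strand as deposited), had 70103, 68349 and 68003 counts in HP, against 20842, 27560 and 28146 in NH. The HP libraries lay within a narrow band and far above the NH libraries. Pck1 was 1.47 to 3.83 times higher in HP over the scalings (edgeR, adjusted p of at most 4.75e-09). Its share of the counts of the 16 nuclear genes was 8.31% ± 0.064 in HP and 5.42% ± 0.383 in NH (SD, n = 3 each).

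Cyp2c23, the main arachidonic acid epoxygenase of the rat kidney (chromosome 1, bases 263778516 to 263803150, minus strand), had 35232, 28564 and 27920 counts in HP, against 12902, 11539 and 13085 in NH. It was 1.31 to 3.44 times higher in HP (edgeR, adjusted p of at most 0.00255). Cyp4a2, a fatty acid omega-hydroxylase that makes 20-HETE, had 86525, 91372 and 89448 counts in HP, against 51226, 51508 and 62611 in NH. Its log2 fold change was 1.22 under TMM and -0.19 with nuclear scaling, with opposite calls (edgeR, adjusted p of at most 0.00541). Reads of Cyp4a2 may be shared with its close paralog Cyp4a3, and how the authors counted such reads is not given in the sources used here.

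The upstream sequences of Pck1 and Cyp2c23 are shown because both genes were higher in HP under every scaling and the Pck1 promoter is a textbook case of hormonal control of gluconeogenesis. They are the 250 bases before the annotated start, from RefSeq on the GRCr8 build (chr3:182348322-182348571, plus strand, for Pck1 and chr1:252863068-252863317, minus strand, for Cyp2c23), written 5′ to 3′. Capitals mark the motifs found.
Pck1: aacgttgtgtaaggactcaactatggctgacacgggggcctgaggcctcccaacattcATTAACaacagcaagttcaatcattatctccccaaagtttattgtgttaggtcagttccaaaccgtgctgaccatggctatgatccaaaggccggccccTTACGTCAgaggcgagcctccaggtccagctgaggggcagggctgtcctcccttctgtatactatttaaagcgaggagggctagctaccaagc
Cyp2c23: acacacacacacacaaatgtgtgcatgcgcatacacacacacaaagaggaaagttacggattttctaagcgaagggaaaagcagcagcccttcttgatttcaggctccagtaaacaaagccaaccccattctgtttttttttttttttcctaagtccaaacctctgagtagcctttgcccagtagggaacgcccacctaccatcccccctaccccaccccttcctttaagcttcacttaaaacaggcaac

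Motifs were searched on both strands, namely the letters TTACGTCA (the cyclic AMP response element as it stands in Pck1), TGACGTCA (its consensus form) and GTTAAT (one arm of a site for hepatocyte nuclear factor 1). No match of one motif overlapped another. The Pck1 window held TTACGTCA once, beginning 93 bases before the start, and GTTAAT once on the other strand, beginning 192 bases before it. Among the 33469 RefSeq promoter windows of this length, TTACGTCA was in 0.75%, TGACGTCA in 1.59% and GTTAAT in 6.45%. The Cyp2c23 window held none of the motifs searched. These matches describe the letters only.

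Glul and Aadat are enzymes of amino acid metabolism. Glul, the glutamine synthetase (chromosome 13, bases 71331052 to 71340229, plus strand), had 38317, 38520 and 40478 counts in HP, against 12374, 17495 and 16483 in NH. All HP libraries had more than 2 times the count of any NH library. Glul was 1.38 to 3.61 times higher in HP (edgeR, adjusted p of at most 6.94e-06). Aadat, the aminotransferase of lysine and kynurenine breakdown, had 56676, 48256 and 46716 counts in HP, against 23595, 23141 and 27133 in NH. It was called higher under 3 scalings and missed the threshold with nuclear scaling (log2 fold change 0.15, SE 0.073, edgeR adjusted p = 0.0646). Its share of nuclear counts overlapped, at 5.66 to 6.72% in HP and 4.83 to 5.66% in NH. Without NH replicate 1 or without HP replicate 3 it passed under all 4 scalings (adjusted p of at most 0.0109 and 0.0231 by edgeR).

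Eef1a1, the elongation factor that brings aminoacyl-tRNA to the ribosome (chromosome 8, bases 85838869 to 85840818, minus strand), had 41817, 44167 and 44856 counts in HP, against 18343, 22817 and 23427 in NH. It was 1.10 to 2.90 times higher in HP (edgeR, adjusted p of at most 0.00541). With nuclear scaling the difference was small, a log2 fold change of 0.14, and it missed the threshold when HP and NH were fitted alone (adjusted p = 0.141). Eef1a1 has many processed copies in mammalian genomes, so its reads may be shared between them.

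**Figure D2:**
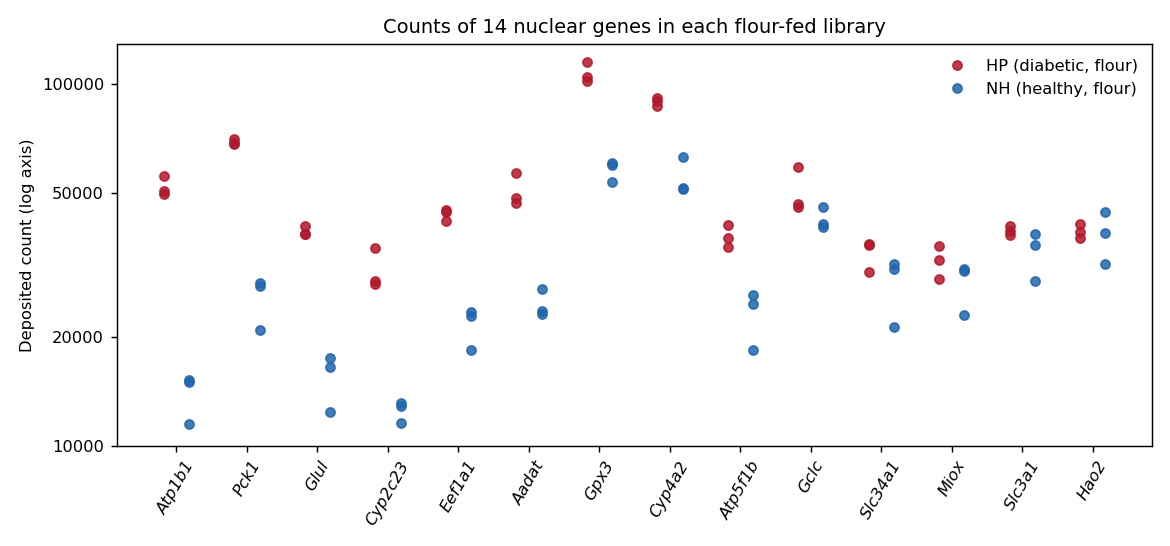
Deposited counts of 14 nuclear genes (log axis) in the 3 HP and the 3 NH libraries, each point 1 library. The 5 genes at the left, Atp1b1 to Eef1a1, were higher in HP under all 4 scalings; Hao2 at the right had 39047 ± 1790 counts in HP and 38216 ± 6239 in NH (SD, n = 3 each).

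The log2 fold changes of the glutathione genes Gpx3 and Gclc had the same sign under each of the 4 scalings but differed in size and in calls. Gpx3, the secreted glutathione peroxidase made in the proximal tubule, had 114684, 101578 and 103975 counts in HP, against 60453, 53642 and 59537 in NH. The counts did not overlap and 3 scalings called Gpx3 higher, with a log2 fold change of 1.39 under TMM (SE 0.106, edgeR adjusted p = 4.39e-09). With nuclear scaling it was -0.02 (SE 0.0849, edgeR adjusted p = 0.856), since Gpx3 made up 13.6, 12.4 and 12.6% of nuclear counts in HP and 14.5, 11.2 and 11.6% in NH. NH replicate 1 held the highest share of all 6. Without that library Gpx3 was higher under all 4 scalings, by 0.13 to 1.16 in log2 (adjusted p of at most 0.0305 by edgeR).

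Gclc, the catalytic subunit of glutamate-cysteine ligase, which starts glutathione synthesis (chromosome 8, bases 85059051 to 85097468, plus strand), had 58681, 46500 and 45553 counts in HP, against 40066, 40880 and 45654 in NH. The lowest HP library and the highest NH library were nearly equal. Gclc was called higher under TMM (log2 0.74) and with median-of-ratios factors (0.16), did not pass unscaled (0.25, edgeR adjusted p = 0.0565), and was called lower with nuclear scaling (-0.64). As a share of nuclear counts it was 6.95, 5.69 and 5.52% in HP, against 9.62, 8.54 and 8.93% in NH. Gclc over Gpx3 per kilobase, a ratio free of scaling, was 0.247, 0.221 and 0.211 in HP, against 0.320, 0.367 and 0.370 in NH (log2 difference -0.64, SE 0.0957, two-sided exact permutation p = 0.1, the smallest possible).

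The remaining nuclear genes given here had counts that overlapped between HP and NH or a call that turned with the scaling. Slc34a1, the sodium-phosphate cotransporter of the brush border, had 30138, 35895 and 36063 counts in HP, against 21300, 31690 and 30685 in NH. Slc3a1, the heavy subunit of the cystine transporter, had 40527, 39190 and 38220 counts in HP, against 28567, 35727 and 38352 in NH. Both proximal tubule transporters were called higher under TMM (log2 0.81 and 0.71) and lower with nuclear scaling (-0.58 and -0.68), and neither passed under the other scalings. The same held for the oxidases Miox, which opens the ring of myo-inositol, and Hao2, a peroxisomal oxidase of long-chain hydroxy acids. Their log2 fold changes were 0.73 and 0.54 under TMM and -0.67 and -0.85 with nuclear scaling. Atp5f1b, the catalytic beta subunit of ATP synthase and the single nuclear gene of the respiratory list, had 35352, 37557 and 40632 counts in HP, against 18335, 26078 and 24680 in NH, with a log2 fold change of 1.24 under TMM and -0.16 with nuclear scaling.

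Shares within the nuclear genes set each gene against the nuclear sum, which is close to nuclear scaling. Of the 16 nuclear genes, 6 took a larger share of nuclear counts in every HP library than in any NH library, 6 took a smaller share and 4 overlapped. The larger shares were those of the 6 genes called higher under all 4 scalings. Gclc, Hao2, Slc34a1, Slc3a1 and Miox were among those with the smaller shares. Hao2 had 4.85, 4.75 and 4.53% of nuclear counts in HP, against 7.63, 8.06 and 8.66% in NH. Slc34a1 averaged 4.11% ± 0.468 in HP and 5.91% ± 0.757 in NH (SD, n = 3 each). Shares have a fixed sum, so a larger share of 1 gene lowers those of the others.

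**Figure D3:**
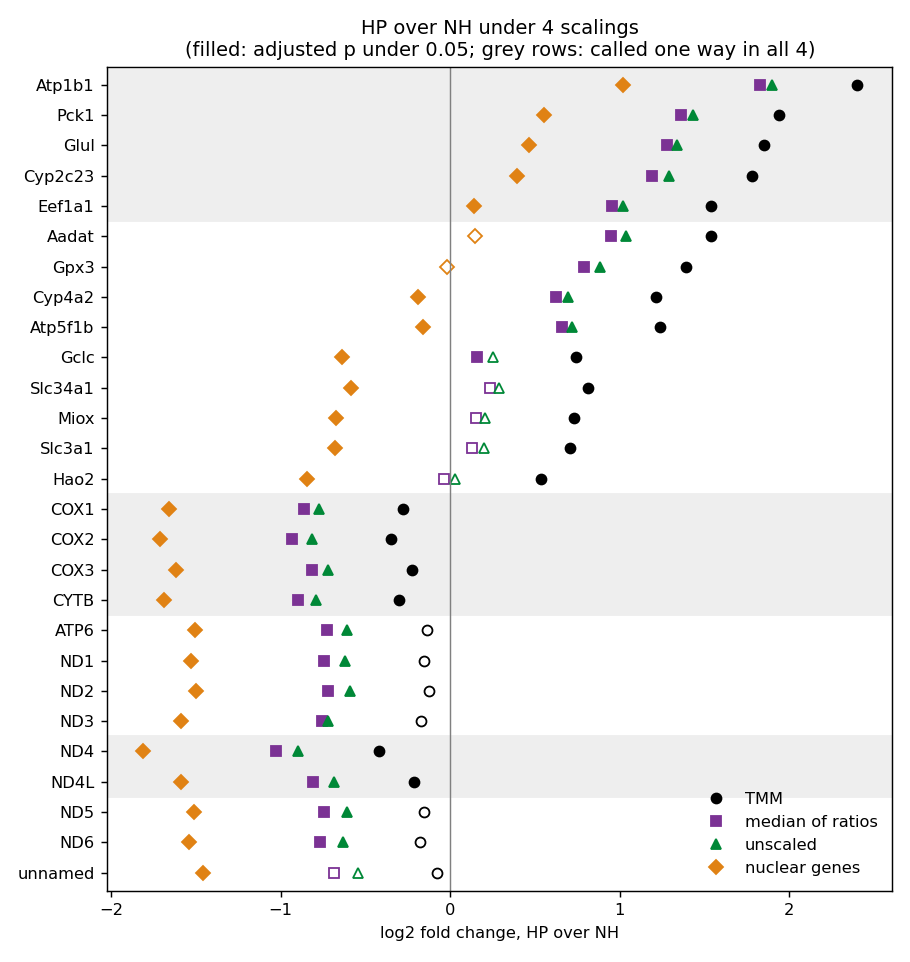
Log2 fold change of HP over NH for 14 nuclear genes, 12 mitochondrial genes and the unnamed feature under 4 scalings in edgeR; filled symbols passed an adjusted p of 0.05 and grey rows mark features called in the same direction under all 4. Nuclear genes from Aadat to Hao2 change side or lose their call between TMM and nuclear scaling, while Atp1b1 lies at 1.02 or above and COX2 at -0.35 or below under all 4.

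All 12 mitochondrial genes had a negative log2 fold change under each of the 4 scalings, although 8 of them turned positive with the mitochondrial genes themselves as library size, and 6 of the 12 were called lower under all of them. These were COX1, COX2 and COX3, the core subunits of complex IV, CYTB, the cytochrome b of complex III, and ND4 and ND4L of complex I. Under TMM 6 of 12 were called lower, and under each of the other 3 scalings 12 of 12. Over all 29 features the share called lower was 20.7% under TMM, 41.4% with median-of-ratios factors, 41.4% unscaled and 72.4% with nuclear scaling. By complex, 3 of 3 listed complex IV genes, 1 of 1 of complex III, 2 of 7 of complex I and 0 of 1 mitochondrial genes of ATP synthase were lower under all 4, beside 20.7% of the 29. This split came from the TMM threshold, since 7 of 7 complex I genes were called lower under each of the other 3 scalings.

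COX2 (bases 7006 to 7689 of the mitochondrial genome, plus strand) had 535471, 349231 and 329891 counts in HP, against 722396, 636458 and 776899 in NH. All HP libraries lay below all NH libraries, with HP replicate 1 the nearest to them. COX2 was 1.27 to 3.27 times lower in HP (largest adjusted p by edgeR 0.000247). COX1 (bases 5323 to 6867, plus strand) had 2059219, 1694672 and 1602763 counts in HP, against 2844448, 2922043 and 3382727 in NH, and was 1.21 to 3.16 times lower there (largest adjusted p by edgeR 0.00813). CYTB (bases 14136 to 15278, plus strand) had 667585, 528368 and 496563 counts in HP, against 1012141, 882984 and 1033338 in NH. It was 1.23 to 3.22 times lower in HP (largest adjusted p by edgeR 0.00635).

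The other 3 calls depended on single libraries. COX3 had 842905, 691522 and 652299 counts in HP, against 1194865, 1081154 and 1326138 in NH, and was 1.17 to 3.06 times lower there (largest adjusted p by edgeR 0.041). It missed the threshold under at least 1 scaling without HP replicate 1 (adjusted p = 0.117), HP replicate 2 (0.0724), NH replicate 2 (0.0625) or NH replicate 3 (0.094), and when HP and NH were fitted alone (0.0598). ND4L had 74883, 53021 and 43116 counts in HP, against 98719, 73819 and 102331 in NH. Its groups overlapped, and it lost its call without HP replicate 2 (adjusted p = 0.0546 by edgeR), HP replicate 3 (0.133) or NH replicate 3 (0.0898), or with HP and NH alone (0.0686).

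ND4 had 59328, 37058 and 43152 counts in HP, against 101533, 73976 and 84496 in NH, and lost its call without HP replicate 2 (adjusted p = 0.0724 by edgeR). The unnamed feature (chromosome 20, bases 19483978 to 19485846, plus strand) is described in the deposited table as similar to the ND4 protein, so reads of ND4 may be split between both. It had 110966, 66532 and 56298 counts in HP, against 140919, 69674 and 129526 in NH, which overlap. Their sum was 170294, 103590 and 99450 counts in HP, against 242452, 143650 and 214022 in NH, and was lower in HP under all 4 scalings, with log2 fold changes of -0.42 under TMM and -1.60 with nuclear scaling (edgeR, adjusted p of at most 0.0203). Without the unnamed feature, ND4 had the lowest level of the mitochondrial genes, at 33754 ± 8352 counts per kilobase in HP and 62894 ± 10092 in NH (SD, n = 3 each). If reads of ND4 are split, this level is too low.

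ATP6, ND1, ND2, ND3, ND5 and ND6 did not pass under TMM, with log2 fold changes between -0.18 and -0.13, and were called lower under the other 3 scalings. ND3 had 40793, 54361 and 47159 counts in HP, against 61957, 64445 and 108080 in NH, where NH replicate 3 stood apart. Without HP replicate 1, all of these but ND3 were called lower under all 4 scalings (adjusted p of at most 0.0499 for ATP6 by edgeR). Without NH replicate 1, ND3 was as well, and calls under all 4 scalings reached 20 of the 29 features against 12 with every library. ND6 is the one gene of the list encoded on the other strand of the mitochondrial DNA, and its 3′ end overlaps ND5 by 23 bases in the deposited positions. The library kit does not mark strand. ND6 over ND5 per kilobase was 0.788, 0.737 and 0.733 in HP, against 0.788, 0.699 and 0.821 in NH, so the groups overlapped (two-sided exact permutation p = 0.8).

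Relative to one another the mitochondrial genes differed little. With the geometric mean of the 12 mitochondrial genes as library size, 0 of the 12 passed in edgeR (0 also at an unadjusted p under 0.05), and the 16 nuclear genes were all called higher (55.2% of 29). COX1 took 31.2, 34.3 and 34.8% of mitochondrial counts in HP, against 32.1, 36.4 and 35.0% in NH. Shares overlapped for 11 of the 12 genes. ATP6 was the exception, with 15.6, 14.2 and 14.2% in HP, against 14.0, 13.3 and 13.8% in NH. Per kilobase, ATP6 and COX1 had the highest levels, 1167723 ± 300379 and 1155697 ± 156257 counts in HP, against 1781826 ± 198084 and 1973941 ± 188333 counts in NH. The ranges of mean ± SD of these genes overlapped in each group, and their difference within a library was not tested.

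Of the 12 calls, 8 passed under all 4 scalings in each of 8 further settings, which left out each of the 6 libraries in turn, fitted HP and NH alone, or added the replicate number as a block. Among these were Atp1b1, Pck1, Glul, Cyp2c23, COX1, COX2 and CYTB. Running these settings under all 4 scalings was added after the data were seen. The mitochondrial genes as library size were not among the settings. With that scaling COX1, COX2 and CYTB were not called (adjusted p = 0.589, 0.101 and 0.356 by edgeR).

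The same test was made between DM and NC, the diabetic and healthy kidneys of rats given water, which share no library with HP and NH. There 7 of 29 features (24.1%) were called in one direction under all 4 scalings, 5 higher in DM (17.2%) and 2 lower (6.9%). Singly, TMM called 16 (55.2%), median-of-ratios factors 27 (93.1%), nuclear scaling 24 (82.8%) and unscaled counts 26 (89.7%). Of the 7, 5 were also called in HP against NH in the same direction, which is 71.4% of the DM calls and 41.7% of the HP calls. Atp1b1, Pck1, Cyp2c23 and COX2 were among them. The number of calls between DM and NC grew when single libraries were left out: without DM replicate 1, DM replicate 3, NC replicate 1 or NC replicate 2, 18, 16, 16 and 17 features passed under all 4 scalings. The 7 calls were kept in each of these cases, and without DM replicate 2 ND2 alone was lost. The added calls were all lower in DM, and in each of the 4 cases COX1, COX3, CYTB, ND4L and Gclc were among them. Atp1b1 averaged 51789 ± 3223 counts in HP and 13885 ± 2082 in NH, beside 62934 ± 2002 in DM and 21009 ± 1286 in NC (SD, n = 3 each). With nuclear scaling its log2 fold change was 1.02 for HP over NH and 1.14 for DM over NC. Cyp2c23 had 0.39 (SE 0.103) for HP over NH and 0.52 (SE 0.103) for DM over NC on that scale.

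Of the nuclear genes, Glul and Eef1a1 were called under all 4 scalings with flour on both sides and not with water on both sides. The same held for the mitochondrial genes COX1, COX3, CYTB, ND4 and ND4L, but only in the fit over all 18 libraries. With DM and NC fitted alone, each of these mitochondrial genes was called lower in DM under all 4 scalings (adjusted p of at most 0.0309 by edgeR). Glul and Eef1a1 were still not called there under all 4. With HP and NH fitted alone, COX3, ND4L and Eef1a1 lost their call. Glul had 37753 ± 1739 counts in DM and 28893 ± 3420 in NC (SD, n = 3 each), and its log2 fold change there was -0.05 with nuclear scaling (SE 0.0635). Gpx3 and ND2 were called under all 4 with water and not with flour. Gpx3 had 101885 ± 2944 counts in DM and 57869 ± 4365 in NC. Whether these diabetic differences themselves differ between the feeds is a separate test, the log2 fold change of HP over NH minus that of DM over NC. In that test Eef1a1 passed with unscaled counts alone (0.54, edgeR adjusted p = 0.0173). COX1 passed with median-of-ratios factors alone (-0.45, edgeR adjusted p = 0.00259). COX3, CYTB, ND4, ND4L and ND2 passed under none of the 4 scalings.

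Gclc was the single feature (3.45% of 29) whose diabetic difference differed between flour and water under all 4 scalings. It had 50245 ± 7321 counts in HP and 42200 ± 3019 in NH, beside 38215 ± 1793 in DM and 80198 ± 4145 in NC (SD, n = 3 each). The difference of the log2 fold changes was 0.88 under TMM (SE 0.114, edgeR adjusted p = 2.88e-05) and 0.70 to 1.32 over the scalings (adjusted p of at most 0.000126 by edgeR). As a share of nuclear counts Gclc stood at 6.06% ± 0.783 in HP and 9.03% ± 0.547 in NH, beside 4.70% ± 0.168 in DM and 13.1% ± 0.336 in NC, so the diabetic kidneys had the smaller share under both feeds and the gap was narrower with flour. The call held under all 4 scalings without any single one of the 12 libraries, and without HP replicate 1 Hao2 passed as well, which made 2 features.

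Pck1 and Slc34a1 had a lower log2 fold change of diabetic over healthy kidney with flour than with water under all 4 scalings. Gpx3 did so under all but the unscaled counts. These differences passed with nuclear scaling and median-of-ratios factors, and not under TMM or unscaled. With nuclear scaling Pck1 was 0.56 (SE 0.0389) for HP over NH and 1.21 (SE 0.0393) for DM over NC in log2, a difference of -0.65 (SE 0.0549, edgeR adjusted p = 3.37e-07). The difference was called with median-of-ratios factors too (-0.81) and did not pass under TMM (-0.64, edgeR adjusted p = 0.0706) or unscaled (-0.22, adjusted p = 0.308). For Slc34a1 the log2 fold change with nuclear scaling was -0.58 for HP over NH and 0.091 for DM over NC, the second not called. Its difference followed the same split, with -0.67 under nuclear scaling (edgeR adjusted p = 0.000384) and -0.65 under TMM (adjusted p = 0.158). Gpx3 had -0.39 with nuclear scaling (edgeR adjusted p = 0.0214), -0.36 under TMM (adjusted p = 0.154) and 0.07 unscaled.

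Glul, Aadat, Hao2 and Slc3a1 had a higher log2 fold change with flour than with water, with differences that were positive under all 4 scalings and passed with nuclear scaling and unscaled but not under TMM or by median-of-ratios factors. On the nuclear scale they were 0.52 for Glul, 0.41 for Aadat, 0.43 for Hao2 and 0.28 for Slc3a1 (edgeR, adjusted p of at most 0.00609). On that scale Hao2 was -0.85 for HP over NH and -1.28 for DM over NC, and Slc3a1 was -0.68 for HP over NH and -0.95 for DM over NC, so both lay nearer to 0 with flour. Over all features, this difference was called for 1 under TMM (8 had an unadjusted p under 0.05), 9 under nuclear scaling (31%), 5 by median-of-ratios factors (17.2%), 7 unscaled (24.1%) and 2 with the mitochondrial genes as library size (6.9%). For Atp1b1 it did not pass under any of the 4, ranging between -0.28 and 0.32.

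Set side by side over the 16 nuclear genes, the log2 fold changes of HP over NH and of DM over NC had a Pearson r of 0.86 with nuclear scaling, and over the 12 mitochondrial genes an r of 0.12. Genes are not independent replicates, and genes of a library share its scaling, so these values are descriptions.

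**Figure D4:**
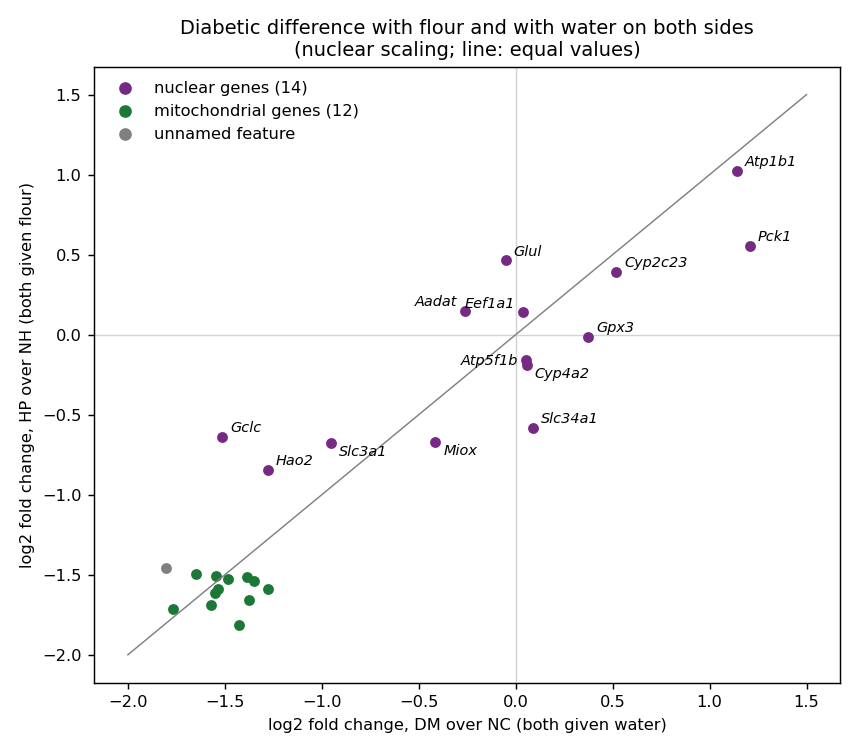
Log2 fold change of HP over NH (vertical axis, both given flour) against that of DM over NC (horizontal axis, both given water) with nuclear scaling, each point 1 of 27 features and the line marking equal values. Atp1b1 lies close to the line, at 1.02 and 1.14; Gclc and Glul lie above it, Pck1 and Slc34a1 below it, and the mitochondrial genes form 1 cluster at the lower left.

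**Figure D5:**
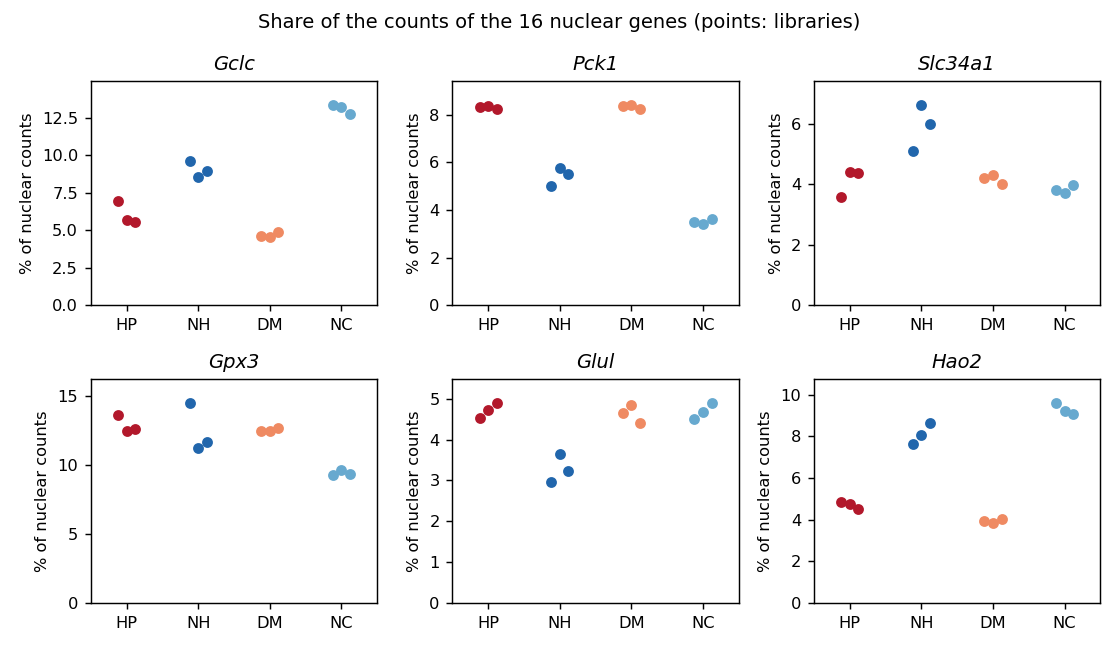
Share of the counts of the 16 nuclear genes taken by 6 of them in each library of HP, NH, DM and NC, on linear axes from 0. Gclc lies at 5.52 to 6.95% in HP and 8.54 to 9.62% in NH, Pck1 is higher in HP than in NH and in DM than in NC, and Glul is low in NH, 2.97 to 3.65%, beside the other groups.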

How the data were processed

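The members, lists and tests were chosen with earlier results of these data known. Groups and replicate numbers came from the sample labels. Per the labels' protocols, libraries were made from 1 µg of RNA with a NEBNext Ultra RNA kit. CASAVA 1.7, Bowtie 0.12.2 and a mouse build (mm8) are named, with no roles, per the submitters' processing notes; of the rat build, annotation and counter nothing is stated in the sources used here. The deposited values are counts: all 522 are whole numbers, between 10521 and 3382727, although the table is titled as FPKM, so this unit is read from the values. Library depth is unknown.

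edgeR 4.0.16 in R 4.3.3 was run as 1 fit over all 18 libraries (quasi-likelihood F test, no dispersion trend, no filter, two-sided, Benjamini-Hochberg over 29 features, threshold 0.05); SE is the log2 fold change divided by the square root of F. DESeq2 1.42.0 and limma 3.58.1 on log2(scaled count + 1) were alternatives. The edgeR test was first run on simulated data, with unscaled counts only and as many features raised as lowered. That run cannot tell how the scalings behave on these data. Replicate libraries of HP and of NH differed by more than sampling noise (chi-square per degree of freedom 233 to 3662). Nothing in the labels makes the replicates separate animals, and the spread behind each p-value may therefore be technical. No batch is recorded. Features called in the same direction under all 4 scalings, and Gclc, are given in every library. So are some others, and values in every library therefore do not mark such a call. The rest are given by list. Ratios and shares used scipy 1.17.1, and 13 of the 16 nuclear genes matched a RefSeq promoter. Values of 2 of the nuclear genes are not reported here, although both entered every fit, sum and count.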

Additional observations from a re-analysis of the deposited data

Results flagged for a closer look

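The diabetic difference in Gclc differed between rats given flour and rats given water, by the test of the difference itself (HP over NH minus DM over NC, log2 0.88, SE 0.114, adjusted p = 2.88e-05 by edgeR under TMM). HP had 50245 ± 7321 counts and NH 42200 ± 3019, while DM had 38215 ± 1793 and NC 80198 ± 4145 (SD, n = 3 each). The 3 NH libraries, at 40066 to 45654 counts, all lay below the 3 NC libraries, at 77749 to 84984.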

How the results depend on the processing

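Between HP and NH, the count of features called stayed between 16 and 28 under every alternative run, against 22 under TMM, and between 19 and 27 without any 1 library; edgeR's expression filter removed 0 features. Directions turned as follows (log2 fold changes of HP over NH). With nuclear scaling Gpx3 was -0.016, Cyp4a2 -0.19, Gclc -0.64, Hao2 -0.85, Atp5f1b -0.16, Slc34a1 -0.58, Slc3a1 -0.68 and Miox -0.67, and Hao2 was -0.039 with median-of-ratios factors and with DESeq2. With the mitochondrial genes as library size COX3 was 0.0021, ATP6 0.091, ND1 0.075, ND2 0.10, ND5 0.074, ND4L 0.017, ND3 0.061, ND6 0.050 and the unnamed feature 0.16. Without single libraries ND3 lay between -0.58 and 0.053 and the unnamed feature between -0.29 and 0.0067. The mitochondrial to nuclear ratio kept its direction, at -1.70 to -1.46 without single libraries, -1.50 without Gpx3 and Pck1 and -1.61 from geometric means.

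Between DM and NC, 16 features were called under TMM, against 27 with median-of-ratios factors, 26 unscaled, 27 with DESeq2, 29 with DM and NC alone and 14 to 27 without single libraries. Hao2 turned to -0.31 with DESeq2 and by median-of-ratios factors, -1.28 with nuclear scaling, -0.84 unscaled, -0.16 with DM and NC alone and -0.32 to 0.11 without single libraries. With nuclear scaling Glul was -0.052, Aadat -0.26 and Slc3a1 -0.95, and Slc3a1 was -0.51 unscaled. COX1 was 0.12 and ND4 0.072 with the mitochondrial genes as library size, and COX1 was 0.010 with named features only and -0.41 to 0.012 without single libraries.

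The difference of the diabetic effects was called for 1 feature under TMM, 9 with nuclear scaling, 5 by median-of-ratios factors, 7 unscaled, 2 with mitochondrial scaling, 7 with DESeq2, 5 with named features only, 15 with HP, NH, DM and NC alone and 1 to 5 without single libraries. Gpx3 turned to 0.067 unscaled and 0.086 with those groups alone. The cause of these changes was not tested.

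Deviations of same-numbered HP and NH libraries correlated at 0.90, 0.53 and 0.09, in order of replicate number. Those of differently numbered libraries correlated at -0.84 to 0.82, and HP replicate 2 was nearest to NH replicate 3 (0.64). Whether replicate numbers pair the samples was not tested. With the replicate block 22 features were called between HP and NH, 28 with those groups alone, 17 between DM and NC and 3 for the difference of effects; the log2 ratio was -1.56 (SE 0.101, exact sign-flip p = 0.25, the smallest possible). Depth is unknown, so no limit on undetected genes can be given.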
